A study of Mus musculus with 4 samples.

Results

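Trim33 peaks whose summit lay directly on an end of 1 protein-coding gene were examined in mouse T helper 17 (Th17) cells. A peak was taken when its summit was within 100 bp of the start or end of a RefSeq protein-coding gene (mm10, chromosomes 1 to 19) and no other such gene had an end within 1000 bp. Of the 26631 peaks on these chromosomes 2923 (10.98%) met this rule, at 2916 genes, and the other 23708 served for comparison. The position of the summit chose the peaks, so their enrichment, width, side of the gene and sequence were not used in the choice. The list came from 2 Trim33 chromatin immunoprecipitation libraries that the authors merged before calling, and the series also holds 2 input DNA libraries. All 4 libraries were from Th17 cells of C57BL/6 mice, with no genetic change or further treatment named in the labels. The cells were made in culture from naive CD4+ T cells of spleen and lymph nodes, with T cell receptor and CD28 stimulation, IL-6, TGF-beta and antibodies that block IL-4 and interferon gamma. The antibody was a Bethyl product against Trim33. The merged list gives 1 value per peak, so no value below has a spread between cultures, and the depth of each library is unknown here. Intervals are 95% exact binomial intervals over peaks or genes, which are not replicates, and they cover counting error only. No test between groups of peaks was made, so nothing below is called particular to these peaks.

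Trim33, also called TIF1 gamma, is a nuclear E3 ubiquitin ligase with a PHD finger and a bromodomain that read modified histone tails. It works with the SMAD proteins of TGF-beta signalling, which bind DNA through short letters such as CAGAC. Transcription by RNA polymerase II begins at the promoter, and many promoters of widely used genes are rich in CpG dinucleotides and in sites for factors of the ETS and SP families. TGF-beta with IL-6 favours the formation of Th17 cells, and IL-23 favours their maintenance.

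Promoter letters show what lay under the summits. The 8 sequences shown first belong to the highest start-side peaks among the genes chosen for naming, and the last pair, Il23r and Gzmb, is shown because their promoters hold few CpG dinucleotides (chosen after the values were seen). Each runs 5′ to 3′ on the strand of the gene, from RefSeq (GRCm38.p6), with up to 75 bases on each side of the summit. The capitals mark the summit base with 10 bases on each side. Kmt2a lies at chr9:44881362-44881512 on the minus strand, Hibch at chr1:52844872-52845022 on the plus strand, Rnf44 at chr13:54693931-54694056 on the minus strand and Isy1 at chr6:87838914-87839009 on the minus strand. Ap1g1 lies at chr8:109778456-109778606 and Rfk at chr19:17393953-17394072, both on the plus strand. Setdb1 lies at chr3:95357200-95357350, Kdm1a at chr4:136602727-136602877, Il23r at chr6:67491877-67492027 and Gzmb at chr14:56262335-56262485, all on the minus strand.
Kmt2a: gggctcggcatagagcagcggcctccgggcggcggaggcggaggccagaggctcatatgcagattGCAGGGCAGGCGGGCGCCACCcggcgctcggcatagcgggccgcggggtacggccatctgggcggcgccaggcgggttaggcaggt
Hibch: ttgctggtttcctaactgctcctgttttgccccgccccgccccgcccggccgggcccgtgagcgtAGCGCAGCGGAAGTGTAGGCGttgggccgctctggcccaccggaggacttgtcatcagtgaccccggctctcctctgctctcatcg
Rnf44: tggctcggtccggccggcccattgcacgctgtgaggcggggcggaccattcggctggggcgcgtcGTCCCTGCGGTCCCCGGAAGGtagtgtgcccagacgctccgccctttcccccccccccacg
Isy1: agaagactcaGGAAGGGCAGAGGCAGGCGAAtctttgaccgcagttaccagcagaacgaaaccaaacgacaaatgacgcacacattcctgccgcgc
Ap1g1: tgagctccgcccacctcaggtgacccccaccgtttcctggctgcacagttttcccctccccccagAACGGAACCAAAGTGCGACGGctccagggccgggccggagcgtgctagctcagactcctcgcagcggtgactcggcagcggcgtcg
Rfk: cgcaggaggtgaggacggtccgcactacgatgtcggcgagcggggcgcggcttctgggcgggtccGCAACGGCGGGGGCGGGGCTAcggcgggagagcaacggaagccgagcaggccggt
Setdb1: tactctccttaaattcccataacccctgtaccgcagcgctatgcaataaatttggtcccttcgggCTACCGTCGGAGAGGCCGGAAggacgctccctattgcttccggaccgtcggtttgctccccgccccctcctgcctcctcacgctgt
Kdm1a: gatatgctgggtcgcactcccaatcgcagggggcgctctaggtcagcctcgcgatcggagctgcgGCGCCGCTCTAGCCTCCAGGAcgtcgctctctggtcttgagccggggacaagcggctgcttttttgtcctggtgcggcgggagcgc
Il23r: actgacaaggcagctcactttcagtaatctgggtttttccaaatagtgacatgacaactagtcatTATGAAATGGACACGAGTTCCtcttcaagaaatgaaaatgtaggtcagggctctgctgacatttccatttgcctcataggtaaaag
Gzmb: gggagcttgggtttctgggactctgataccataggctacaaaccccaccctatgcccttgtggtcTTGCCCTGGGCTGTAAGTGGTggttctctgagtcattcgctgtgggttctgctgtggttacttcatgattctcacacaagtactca

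The summit windows of these genes held different letters. In Rnf44 the ETS letters CCGGAAG began 3 bp from the summit, and in Setdb1 they lay 5 bp from it with another match 26 bp away on the opposite strand. In Rfk the SP letters GGGCGG covered the summit base. In Kmt2a and Kdm1a the GC-rich letters GGCGCC, which SMAD proteins can also bind, lay 2 bp and 6 bp from the summit. Isy1 held none of the 16 motifs searched in the letters shown. In both Il23r and Kdm1a the ROR letters AGGTCA lay 31 bp from the summit. In Gzmb the AP-1 letters TGANTCA lay 18 bp and the RUNX letters TGTGGT 12 bp from the summit. The SMAD letters CAGAC lay 20 bp from the summit in Rnf44 and 40 bp in Ap1g1. In Hibch the nearest GGGCGG lay 29 bp away. Not every match in these sequences is given. The 151 bases of Kmt2a held 18 CpG dinucleotides, whereas those of Il23r and of Gzmb held 1 each. A match of letters is a description and does not show that a factor was bound.

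Nearly all of the peaks whose side was known lay on the start and not on the opposite end of the gene. The start here is the outermost gene end on the upstream side, which need not be a start of the promoter table. The strand was known from the RefSeq promoter table for the genes of 2327 of the 2923 peaks. Of these, 2311 (99.3%, interval 98.9% to 99.6%) lay at the start and 16 (0.688%, 0.394% to 1.11%) at the opposite end. Set against the ends that could hold such a peak, 2308 of 13859 isolated starts had one (16.7%, 16.0% to 17.3%). Of 14090 isolated opposite ends 16 did (0.114%, 0.0649% to 0.184%). Of the 13859 isolated starts, 10739 had an annotated start of the promoter table within 100 bp, and of the 2308 with a peak 2044 did. The other 596 peaks belonged to genes with no strand in that table and are described as lying on a gene end.

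Summits piled up around the start and showed no such rise around the opposite end. Within 1000 bp of starts there were 4627 summits near 1 gene only, of which 2311 were within 100 bp. The 50 bp just before the start held 766 summits, the most of any 50 bp step, and the step beginning at the start held 633. At 101 to 150 bp before the start there were 298, and in the outermost step before it 24. Around opposite ends there were 276 summits within 1000 bp, and no 50 bp step held more than 12. Just before and just after the opposite end the steps held 4 and 5.

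**Figure D1:**
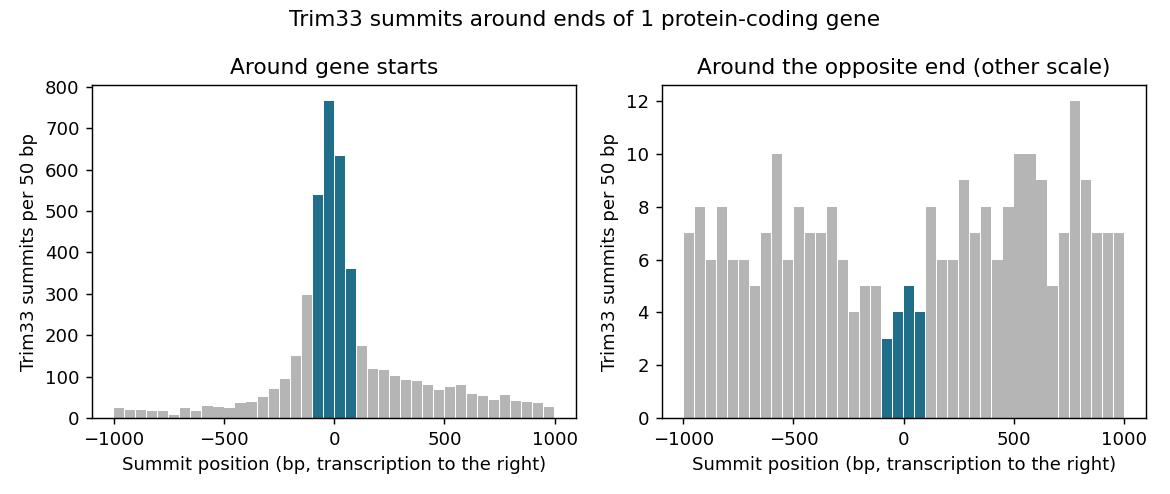
Number of Trim33 summits per 50 bp (vertical axis) against the position of the summit from the gene start (left) or from the opposite gene end (right, on its own scale), for summits near 1 protein-coding gene; blue bars are the steps within 100 bp. The bars reach 766 just before the start and at most 12 around the opposite end.

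Of the 2311 start-side summits, 1305 lay upstream of the start (56.5%, interval 54.4% to 58.5%), 997 downstream and 9 on the start base. The median position was 10 bp upstream, with quartiles at 48 bp upstream and 30 bp downstream. Upstream peaks had a median fold enrichment of 6.16 (interval of the median 6.04 to 6.31), and downstream peaks 5.83 (5.71 to 6.00), so the intervals did not overlap. The fold is the authors' value, the signal at the summit over the background that the peak caller estimated. Peaks of 10-fold or more made up 12.03% of the upstream and 9.33% of the downstream group. Distance alone showed little order, with medians of 6.02 within 25 bp, 5.89 at 26 to 50 bp, 6.07 at 51 to 75 bp and 6.15 at 76 to 100 bp.

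The peaks on 1 gene end were about as enriched as the remaining peaks and had a larger median width, which peaks elsewhere near gene ends shared. Their fold ran from 2.33 to 31.0 with a median of 6.07 (interval 6.00 to 6.16, quartiles 4.86 and 7.85). The other peaks had a median of 5.99 (5.94 to 6.04) and reached 54.6. The difference of medians was 0.0816, and it was 0 against peaks over 1000 bp from every end, whose median was also 6.07. Summits 101 to 1000 bp from the nearest end had a median of 5.65 (5.57 to 5.72), and those within 100 bp of an end where several genes had ends within 1000 bp had 5.75 (5.51 to 5.94). These 2 groups held 3716 and 706 peaks. A fold of 10 or more was found in 311 of the 2923 peaks (10.6%, 9.54% to 11.8%), against 11.1% of all peaks. They made up 3 of the highest 100 peaks and 80 of the highest 1000 (8%), beside 10.98% of all peaks.

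The median width was 260 bp for peaks on 1 gene end (quartiles 196 and 356 bp, range 138 to 1034 bp) and 224 bp for the others. The larger width was not limited to these peaks, since the median was 256 bp (251 to 261 bp) at 101 to 1000 bp from an end and 262 bp (250 to 275 bp) where several genes had ends, against 260 bp (255 to 265 bp) here. Over 1000 bp from every end it was 219 bp (217 to 220 bp). Width rises with enrichment, so both groups were set side by side within bands of fold. The median was larger on gene ends in every band. From 4-fold up to 10-fold the intervals did not overlap. Between 6-fold and 7-fold the medians were 271.5 bp (260 to 289 bp, n = 464) on gene ends and 221 bp (218 to 224 bp, n = 3779) elsewhere. Above 15-fold they were 468 bp (366 to 533 bp, n = 37) and 403.5 bp (390 to 420 bp, n = 506), and these intervals overlapped, as did those below 4-fold and between 10-fold and 15-fold.

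**Figure D2:**
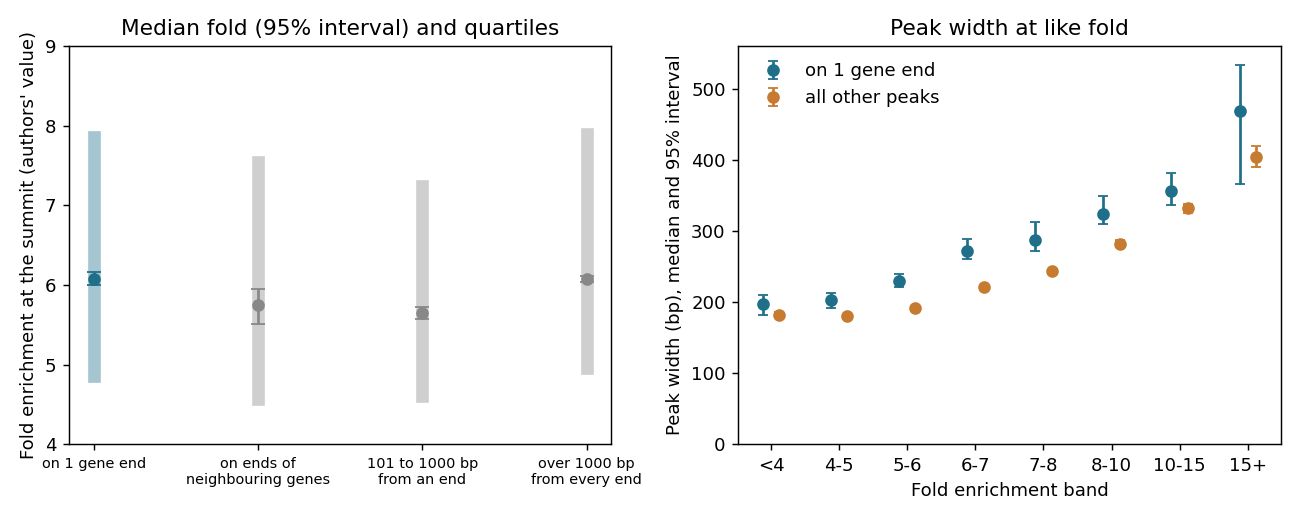
Left, fold enrichment at the summit (vertical axis) by distance class, with the median and its 95% interval (point and whisker) and the quartiles (bar). Right, peak width in bp against the band of fold, medians with 95% intervals, for peaks on 1 gene end and all other peaks; the gene-end median was 271.5 bp against 221 bp between 6-fold and 7-fold.

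The 10 highest of these peaks ran from 17.8-fold to 31.0-fold. Kmt2a, a histone methyltransferase gene, had 31.0-fold enrichment at chromosome 9, 44881265 to 44881753, with the summit 85 bp upstream of the start, rank 26 of all peaks. Hibch, an enzyme of valine breakdown, had 27.4-fold enrichment with the summit 91 bp upstream (chromosome 1, 52844750 to 52845157). At Rnf44, a RING finger gene, the fold was 24.9 and the summit lay 95 bp downstream of the start. The start-side peaks at Isy1 (a splicing factor, 19.9-fold), Ap1g1 (a clathrin adaptor subunit, 18.5-fold) and Rfk (riboflavin kinase, 17.9-fold) all had upstream summits. Med23, a Mediator subunit gene, had a peak of 19.8-fold on a gene end, Ints10 of the Integrator complex one of 17.9-fold, and Thoc1 of the mRNA export machinery one of 17.8-fold. The remaining 1 of the 10, at Trim26, lay on the opposite end of the gene.

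The lowest of the 2923 peaks were at Rfc4, a clamp loader subunit (2.33-fold), and at Slc3a2, an amino acid transporter chain, and Ier3, an early response gene (both 2.64-fold). The widest were at Insig1, a regulator of sterol synthesis (1034 bp, 8.32-fold), Rap2a, a small GTPase (1001 bp, 9.79-fold), and Klf13, a zinc finger factor of T cells (987 bp, 10.3-fold).

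CpG content differed between occupied and unoccupied starts. Promoters of 300 bases (250 before and 50 after the annotated start) were compared for 10739 isolated starts whose annotated start lay within 100 bp of the gene end. In 2044 with a Trim33 peak on the start the median number of CpG dinucleotides was 23 (quartiles 17 and 30). In 7541 with no summit within 1000 bp it was 5 (quartiles 2 and 14). The medians of GC content were 62.2% and 50.3%, and the medians of the observed over expected CpG ratio 0.821 and 0.275. When all of these starts were ordered by CpG number and cut into 4 classes, the share with a peak on the start was 0.568% (19 of 3343) with 0 to 3 CpG. It was 5.91% (128 of 2164) with 4 to 10, 30.8% (812 of 2637) with 11 to 22 and 41.8% (1085 of 2595) with 23 to 65. The median fold of the peaks was 6.22 (6.07 to 6.46) in the class with most CpG and 5.80 (5.70 to 6.04) in the next one. It was 5.86 (5.63 to 6.12) with 4 to 10 CpG and 5.68 (4.75 to 7.76) with 0 to 3. The intervals of these lower classes overlapped that of the class with most CpG. Olfactory and vomeronasal receptor genes were not left out of the promoters compared. Their part in the contrasts of CpG content was not tested.

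**Figure D3:**
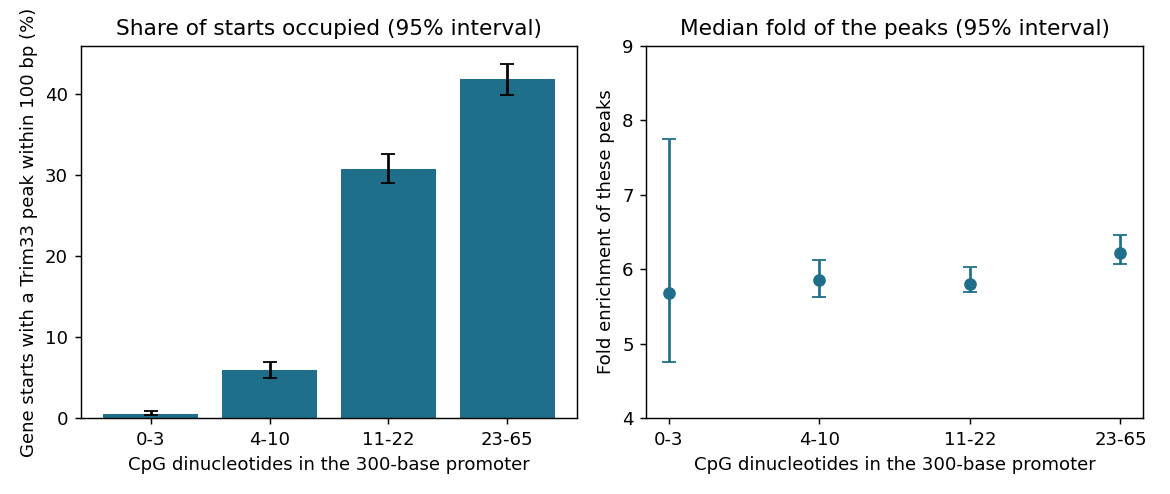
Share of isolated gene starts with a Trim33 peak within 100 bp (left, percent, bars with 95% intervals) and median fold of those peaks (right, points with 95% intervals) in 4 classes by the number of CpG dinucleotides in the promoter. The share rises from 0.568% to 41.8%, while the median fold moves between 5.68 and 6.22.

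The 19 peaks on starts with at most 3 CpG are named because of their low CpG number, after it was seen. They included the cytotoxic granule gene Gzmb (8.96-fold), the IL-23 receptor gene Il23r (8.85-fold) and the lymphocyte GTPase genes Gimap7 (7.88-fold) and Gimap8 (5.49-fold). T cell surface genes among them were Cd5 (6.36-fold), the chemokine receptor Cxcr6 (4.20-fold) and the inhibitory receptor Havcr2 (3.60-fold). Genes known for induction by interferon were Ifi35 (7.76-fold), Trim21 (6.85-fold), Trim34a (6.11-fold), Slfn2 (5.34-fold), Oas3 (5.20-fold) and Ifi209 (4.75-fold). Pycard, an inflammasome adaptor, had 5.68-fold enrichment, Traf3ip3 6.03-fold and Runx1, a factor of T cell development, 4.69-fold at the outermost start. The others were C1rl (7.82-fold), Chit1 (5.30-fold) and F2rl2 (3.71-fold). The share of T cell or interferon genes among all 3343 starts with at most 3 CpG was not taken. Of the neighbouring Gimap genes on chromosome 6, Gimap4, Gimap5, Gimap6 and Gimap9 also had a peak on the start, of 5.04, 4.92, 9.37 and 4.32-fold.

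Short motifs were counted on both strands of the same 300-base promoters. Matches of different motifs may overlap, as GGGCGG and GGCGCC can. Of 16 motifs, 7 were in a larger share of the occupied than of the unoccupied promoters. The ETS letters CCGGAAG were in 23.7% (21.9% to 25.6%) of the occupied promoters, in 5.09% (4.61% to 5.61%) of the unoccupied ones and in 8.86% of all 32851 promoters of the table, which also covers long noncoding RNA genes. The SP letters GGGCGG were in 74.4%, 29.4% and 35.7% of these sets, the GC-rich SMAD letters GGCGCC in 24.9%, 9.14% and 11.9%, and the E-box letters CACGTG in 12.9%, 5.61% and 7.15%. The cAMP response letters TGACGTCA were in 5.04%, 1.42% and 1.79%, the NRF1 core GCGCATGC in 7.19%, 2.03% and 2.71%, and the YY1 letters AAGATGG in 7.73%, 5.91% and 6.34%.

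The SMAD letters CAGAC were in 46.2% (44.1% to 48.4%) of occupied and 49.2% (48.1% to 50.3%) of unoccupied promoters, and in 49.6% of all. The AP-1 letters TGANTCA were in 4.40% against 9.31% and 7.81% of all, the RUNX letters TGTGGT in 12.5% against 17.8% and 16.8%, and the STAT letters TTCNNNGAA in 6.26% against 9.32% and 8.30%. For the ROR letters AGGTCA the shares were 11.3%, 16.9% and 16.3%, for the GATA letters AGATAA 5.04%, 14.03% and 11.2%, and for the IRF motif 2.89%, 4.10% and 3.44%. The TATA letters TATAAA were in 5.43%, 21.1% and 13.6%, and the NF-Y letters CCAAT in 34.4%, 41.8% and 37.4%. CpG content differed between both sets of promoters, so the shares were also taken within the class with most CpG (23 to 65), an alternative added after the data were seen. There the ETS letters were in 23.1% (20.7% to 25.8%) of 1085 occupied and 10.3% (8.42% to 12.4%) of 932 unoccupied promoters. In the same class the SP letters were in 86.3% (84.1% to 88.3%) and 83.8% (81.3% to 86.1%), and GGCGCC turned to a smaller share, 34.1% (31.3% to 37.01%) against 38.3% (35.2% to 41.5%). There the AP-1 letters (3.13% and 2.36%), the RUNX letters (9.59% and 7.30%), the ROR letters (9.95% and 8.05%), the GATA letters (2.58% and 1.93%) and the IRF motif (1.75% and 0.966%) turned to larger shares in occupied promoters, with overlapping intervals. For ETS and for NRF1 (8.57%, 6.97% to 10.4%, against 5.15%, 3.82% to 6.77%) the intervals did not overlap, and for the other 14 motifs they did. In the next class (11 to 22 CpG) ETS again stood apart, with 26.4% (23.4% to 29.5%) of 812 occupied and 12.3% (10.6% to 14.1%) of 1428 unoccupied promoters. The CCAAT letters also stood apart there, in the other direction, with 35.6% (32.3% to 39.0%) against 45.9% (43.3% to 48.5%). NRF1 there had the smaller share in occupied promoters, 6.03% against 6.23%, with overlapping intervals. The fold itself differed little with the motifs. Peaks at promoters with the AP-1 letters had a median of 6.62-fold (6.22 to 7.08) against 6.00-fold (5.88 to 6.09) without. Those with CCAAT had 5.70-fold (5.52 to 5.91) against 6.22-fold (6.07 to 6.41), and for the remaining 14 motifs the intervals overlapped.

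**Figure D4:**
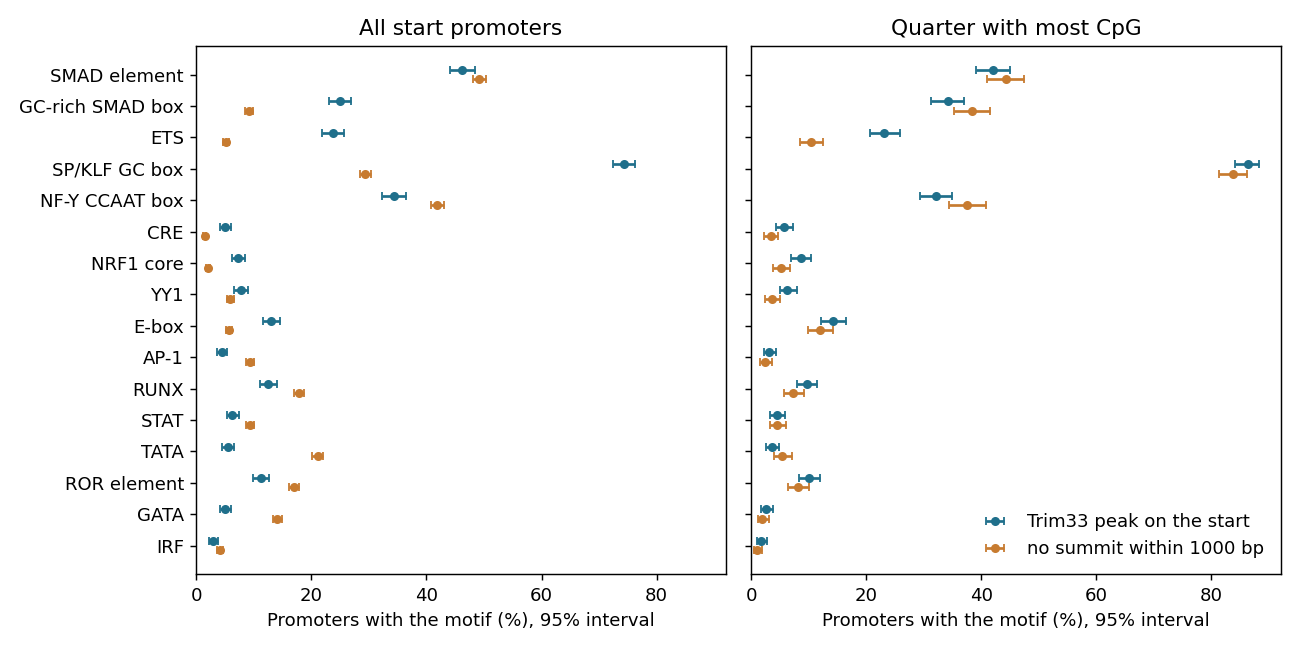
Share of 300-base promoters that hold each motif (horizontal axis, percent, points with 95% intervals), for starts with a Trim33 peak and starts with no summit within 1000 bp, in all isolated starts (left) and in the class with most CpG (right). The ETS points stay apart in both panels, 23.7% against 5.09% and 23.1% against 10.3%.

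ETS letters were also near the summit itself. In 1299 occupied promoters the summit lay 1 to 100 bp before the annotated start. The 101 bases centred on the summit held CCGGAAG in 16.5% (14.5% to 18.6%) of them, and the 101 bases centred 100 bp farther upstream in 3.39% (2.47% to 4.52%). For GGGCGG these shares were 57.3% and 30.9%, for TGACGTCA 3.70% and 0.693%, and for CAGAC 16.9% and 19.01%. Both windows also differ in their distance from the start, whose part in these shares was not tested. The most ETS matches, 72, were found 10 to 30 bp downstream of the summit, with 60 within 10 bp of it and 33 at 10 to 30 bp upstream, so more lay on the side of the start. In the last 100 bases of the promoter window, around the start, CCGGAAG was in 17.1% of occupied and 3.12% of unoccupied promoters. Within the class with most CpG these shares lay closer, at 14.3% (12.3% to 16.5%) and 6.01% (4.57% to 7.73%).

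The groups of genes were then described by how many of their members had a peak on an end, against 14.1% of all 20661 protein-coding genes. Leaving out symbols with Olfr, Vmn, Gm or Rik, this background was 16.1%. All genes of a group were counted, also those with ends close to the end of another gene, where the rule takes no peak. With peaks at such shared ends counted too, 17.5% of all genes had one. By the rule, 5 of 24 genes of the Th17 list had a peak on an end (20.8%, interval 7.13% to 42.2%). Il23r had 8.85-fold enrichment 97 bp upstream of its start and Il12rb1, which encodes the partner chain of the IL-23 receptor, 7.14-fold at 18 bp from a gene end. Nfkbiz, a nuclear cofactor of NF-kB, had 4.76-fold, Runx1 4.69-fold and Ahr, a ligand-gated factor of Th17 cells, 4.46-fold. Their median was 4.76, below that of all 2923 peaks. The genes Il17a, Il17f, Il10, Stat3, Maf, Rora, Ccr6 and Smad3 had no such peak, and their nearest summits lay 822, 929, 1069, 160, 196, 42564, 1287 and 272 bp from an end. In the same order these summits had 6.18, 9.59, 8.40, 13.1, 6.88, 5.17, 8.86 and 3.34-fold, so the lack of a peak by the rule is not a lack of enrichment nearby. At Trim28 the nearest was 358 bp away, with ends of 2 genes within 1000 bp.

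In the TGF-beta list 8 of 34 genes had a peak on an end (23.5%, 10.7% to 41.2%), with a median of 7.17-fold. Among receptors, Acvr2a of the activin pathway had 9.46-fold and Tgfbr2, the type II TGF-beta receptor, 4.55-fold with the summit exactly 100 bp from its start. Among signal transducers, Smad4, the common SMAD, had 8.91-fold and Smad5 of the BMP branch 5.63-fold. Of the inhibitors, Smad7 had 6.66-fold, and the ubiquitin ligase genes Smurf1 and Smurf2, which act on SMAD proteins and receptors, 7.87-fold and 7.69-fold. Id2, a target of the pathway, had 3.92-fold, which completes the 8. Trim33 itself had a peak of 5.21-fold, 141 bp wide, 74 bp from an end. Among TRIM and gene-silencing factors 7 of 19 genes had a peak (36.8%, 16.3% to 61.6%). There the histone methyltransferase gene Setdb1 had 16.8-fold, 73 bp upstream of its start, and Trim24, a relative of Trim33 in the TIF1 family, 6.99-fold.

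In the T cell receptor list 10 of 29 genes had a peak (34.5%, 17.9% to 54.3%), at moderate enrichment between 2.97-fold and 7.70-fold. Cd3g, a chain of the receptor complex, had 7.70-fold, the kinase gene Lck 7.38-fold with its summit 2 bp from the start, and the costimulatory receptor gene Cd28 7.24-fold. Genes of NF-kB and AP-1 signalling had 9 of 23 (39.1%, 19.7% to 61.5%), led by the feedback inhibitor Tnfaip3 (11.2-fold) and Bcl3 (10.9-fold), with Junb at 6.22-fold. In the JAK-STAT list there were 5 of 22 (22.7%, 7.82% to 45.4%), with Ptpn2, a phosphatase of JAK and STAT proteins, at 6.48-fold and Jak1 at 5.88-fold. Genes for IL-10 and for inhibitory receptors had 4 of 18 (22.2%), among them Ctla4 at 6.65-fold and Btla at 4.76-fold.

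Lists of other helper fates differed in count. The Th1 list had 6 of 17 genes (35.3%, 14.2% to 61.7%), with Il18rap, a chain of the IL-18 receptor, at 9.34-fold and Ifngr1 at 6.62-fold. The Th2 list had 0 of 15 (upper limit of the interval 21.8%). The T follicular helper list had 2 of 10, Bcl6 at 8.50-fold and Lef1 at 4.74-fold, and the regulatory T cell list 1 of 14, Ctla4. Markers of other cells had 0 of 17 (B cell), 1 of 20 (myeloid, Itgax at 5.52-fold) and 1 of 13 (CD8 and NK cells, Gzmb). The non-haematopoietic list had 1 of 23, Mbp at 6.70-fold, 46 bp from an outermost end of the gene whose side was not known. All of these intervals except that of the Th1 list included the background of 14.1%, and that of the Th1 list began at 14.2%, so it included the background of 16.1%.

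Lists of general cell functions had members too. The RNA polymerase II and Mediator list had 10 of 25 (40.0%, 21.1% to 61.3%), with Polr2a, the largest subunit, at 9.23-fold and Gtf2b at 8.79-fold. The list of chromatin modifiers had 7 of 31 (22.6%, 9.59% to 41.1%) but held the highest of the 2923 peaks, at Kmt2a, and those of the demethylase gene Kdm1a (16.4-fold) and of Kmt2e (15.5-fold). Their median was 7.65-fold. The autophagy and lysosome list had 7 of 20 (35.0%), with Tfeb, a regulator of lysosome genes, at 8.96-fold, Lamp1 at 7.98-fold and Rb1cc1 at 7.73-fold. The ubiquitin list had 6 of 19 (31.6%), with Mdm2 at 8.92-fold, Cul3 at 8.59-fold and Ube2l3 at 7.91-fold. The housekeeping list had 4 of 18 (22.2%), among them Tfrc at 5.92-fold. In the cell cycle list there were 4 of 26 (15.4%), with Plk1 at 8.09-fold, Cdkn2c at 7.04-fold and Rb1 at 6.39-fold. The DNA replication and repair list had 3 of 25 (12%), Cdt1 at 5.19-fold, Parp1 at 4.55-fold and Mcm2 at 3.72-fold. With peaks at shared ends counted too, this list had 5 of 25 (20%, 6.83% to 40.7%), against 17.5% of all genes.

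Families grouped by symbol ranged from 0% to 34.2% of their genes. Cytosolic ribosomal protein genes had 27 of 79 (34.2%, 23.9% to 45.7%), with Rps20 highest at 14.01-fold, and proteasome genes 16 of 50 (32.0%, 19.5% to 46.7%), with Psmd12 at 14.1-fold. The translation initiation family had 16 of 53 (30.2%, 18.3% to 44.3%), with Eif3e at 14.6-fold, and splicing and hnRNP genes 23 of 81 (28.4%, 18.9% to 39.5%), with Lsm5 at 13.8-fold. Oxidative phosphorylation genes had 24 of 93 (25.8%, 17.3% to 35.9%), led by the assembly factor gene Ndufaf4 at 13.1-fold. Mitochondrial ribosomal protein genes had 19 of 78 (24.4%), with Mrpl39 at 13.0-fold, and tRNA synthetase genes 9 of 34 (26.5%), with Nars at 9.81-fold. Rab GTPase genes had 13 of 55 (Rab12, 11.6-fold), TRIM genes 12 of 68, Zfp genes 72 of 388 (18.6%, Zfp78, 11.99-fold), Tmem genes 37 of 231 (Tmem65, 15.7-fold) and solute carriers 50 of 362 (13.8%, Slc33a1, 15.5-fold). Interleukins with their receptors had 5 of 78 (6.41%, 2.11% to 14.3%; Il1rap, 10.2-fold), chemokine receptors 3 of 17, dual-specificity phosphatases 4 of 22 (Dusp1, 7.90-fold) and histone genes 6 of 81 (7.41%; H4c3, 6.63-fold). Of 1104 olfactory receptor genes 1 had such a peak (Olfr49, 6.33-fold), and of 354 vomeronasal receptor, 53 keratin and 42 collagen genes none had. Some family shares changed when peaks at shared ends were counted too, with 17.5% of all genes beside them. Mitochondrial ribosomal protein genes then had 30 of 78 (38.5%), oxidative phosphorylation genes 33 of 93 (35.5%) and splicing and hnRNP genes 35 of 81 (43.2%).

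**Figure D5:**
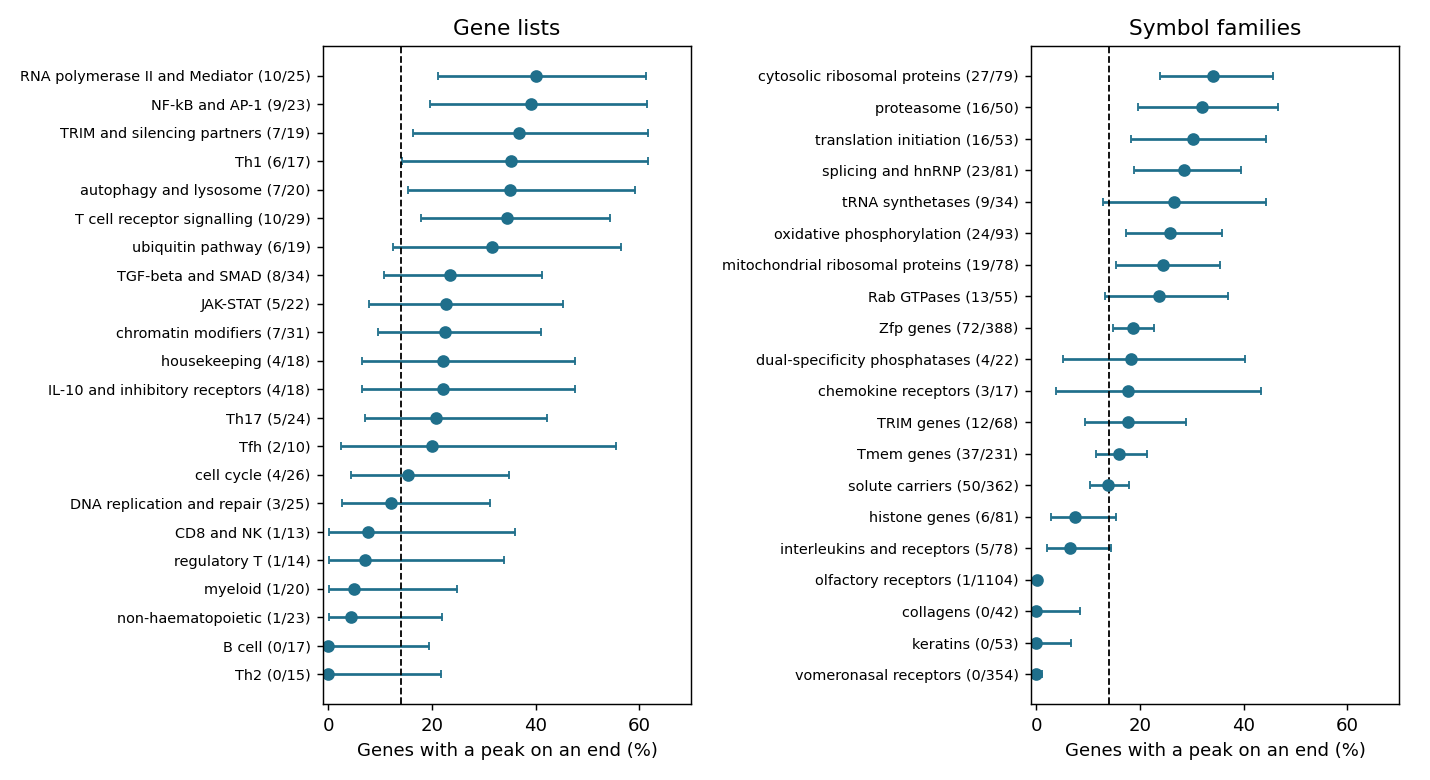
Share of genes with a Trim33 peak on a gene end (horizontal axis, percent, points with 95% intervals; counts in brackets) for 22 gene lists (left) and 20 symbol families (right). The dashed line is the share of all protein-coding genes, 14.1%; cytosolic ribosomal protein genes lie at 34.2% and olfactory receptor genes at 0.0906%.

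The 16 peaks on the opposite end of a gene had a median of 5.97-fold (interval 4.99 to 7.69). The highest was at Trim26, a TRIM ubiquitin ligase gene, with 18.2-fold enrichment 71 bp from the end, and Otulin, a deubiquitinase of linear chains, had 10.2-fold. At 15 of the 16 no other annotated gene of any kind had an end within 1000 bp. Starts of the promoter table were over 2000 bp away at 14 of them. That table covers 16456 of the 20661 protein-coding genes, so starts of the others could not be searched. The exceptions were Tmem253, with a start of Zfp219 120 bp away, and H1f2, a short histone gene whose own start was 713 bp away. In 7 genes both ends carried a peak, and Polr3b, a subunit of RNA polymerase III 104887 bp long, had 8.71-fold at its start and 8.58-fold at its end. Irf2bp1 had 9.96-fold at its start and 5.94-fold at its end. Gpr171 had peaks of 11.9-fold and 5.67-fold and Dtx4 of 11.4-fold and 4.75-fold, and which of their ends is the start was not known from the promoter table. The start had the lower fold at Trim26 (4.49 against 18.2), Fhl3 (4.45 against 7.69) and Dcps (4.20 against 6.00), 3 of the 5 genes with known sides.

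A larger share of genes with a peak on an end than of other genes held further Trim33 summits inside the gene. Counting only summits over 1000 bp from every gene end, 924 of 2916 such genes had one (31.7%), against 3519 of 17745 other genes (19.8%). Genes with a peak were longer, with a median of 26.6 kb against 16.0 kb, so the shares were also taken by length. Between 30 and 100 kb they were 42.3% (39.2% to 45.5%) and 35.2% (33.7% to 36.7%), and from 100 kb up 78.3% (73.6% to 82.5%) and 53.3% (51.1% to 55.5%). Long noncoding RNA ends lay within 1000 bp at 307 of 2308 isolated starts with a peak (13.3%, 11.9% to 14.8%) and at 936 of 11551 without (8.10%, 7.61% to 8.62%). Peaks with such a neighbour had a median of 6.22-fold (5.92 to 6.49, n = 389) and those without 6.07-fold (5.94 to 6.15, n = 2534).

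The share of genes with a peak on an end varied between chromosomes from 8.87% on chromosome 7 to 17.4% on chromosome 5. Without such receptor and predicted gene symbols the range was 11.7% on chromosome 7 to 20.5% on chromosome 10. The limit of 100 bp cut through a continuous range. Just inside it, at 100 bp, were Calm3 (15.6-fold) and Tigd2 (14.5-fold), and just outside, at 101 bp, Pum2 (15.4-fold) and Jak3 (8.36-fold). The 167 peaks at 91 to 100 bp had a median of 6.04-fold and the 121 at 101 to 110 bp, with the same condition on neighbours, 6.16-fold.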

How the data were processed

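Trim33 peaks of Th17 cells were read from 1 list, which the authors called on merged replicates, per the labels of its peaks. Trim Galore (0.3.7), Bowtie (1.2.1.1), MACS2 (2.1.1.20160309) and the mm10 build are named in the submitters' processing notes, and the caller's settings, control and cutoff were not given in the sources used here. The deposited list gives a fold enrichment (a ratio to the caller's background), the −log10 of q, and a score, which was not used. A site strong in 1 library alone can enter a merged list, so the agreement of both libraries is unknown.

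The summit, counted from 1, was compared with gene ends of a RefSeq table (GRCm38.p6, the assembly of mm10). Strand and promoter letters came from the RefSeq promoter table. Python 3.11.15, pandas 2.3.3, scipy 1.17.1 and numpy 2.4.6 were used. Medians have order-statistic intervals and shares Clopper-Pearson intervals. The placement of summits was checked on simulated data. The members, gene lists, families and motifs were chosen with earlier results of these data known. The histone and ribosomal families were corrected after their first values were seen, since they had also taken in MHC and kinase genes. Named genes were the 10 highest, 3 widest and 3 lowest peaks, up to 3 genes of each list, the highest of each family, 5 genes with peaks at both ends, peaks nearest the limit and a set of Th17 genes. Genes outside this rule, all low-CpG and Gimap genes, Fhl3, Dcps and the remaining TGF-beta and Th17 list genes among them, were named after their values were seen. A few genes chosen by this rule are not reported here.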

Additional observations from a re-analysis of the deposited data

Results flagged for a closer look

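On chromosome X, which the rule leaves out, 65 of 416 peaks would have met its conditions on position. They belonged to 65 of 966 genes there (6.73%, interval 5.23% to 8.50%), and their median was 5.34-fold. These peaks are listed because they lie outside the data compared above.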

How the results depend on the processing

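The number of peaks was 1783 with a window of 50 bp, 1515 with only peaks at or above the median fold and 1567 with only those at or above the median −log10 q, in each case by construction. The difference of median fold turned to −0.0640 with peaks at or above the median −log10 q, and the cause was not tested. With that set 19.8% of the peaks on gene ends had 10-fold or more, by construction. The share of all peaks in that set was not taken, so 19.8% cannot be set against the 11.1% of all peaks given above. The difference of median width was 25 bp with a window of 50 bp and 45 bp with 200 bp. The share at the start was 98.7% with 200 bp. In the class with most CpG 11 motifs, not 7, had the larger share in occupied promoters. The other alternatives for these results stayed within 1.5 times for counts and within the interval of the reported value otherwise. Of the 32 single motif shares under alternatives 20 moved beyond their interval, and of the 66 single list counts 24 moved by over 1.5 times. Without replicate values no library could be left out. No paired analysis was possible because the list was made from merged replicates.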
